A study of Mus musculus with 8 samples.

Results

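The genes that carry the main signals for osteoclast formation were followed in bone of Hyp mice, 6 of the 18193 genes with a named probe set: Tnfsf11 (RANKL), Tnfrsf11a (RANK), Tnfrsf11b (osteoprotegerin), Csf1, Csf1r and Il34. They were read at all 14 probe sets, of 45037 tested, that the platform annotation gives to exactly 1 of these symbols, and none of the 6 lacked a probe set. The study set 4 arrays of male Hyp mice against 4 arrays of male wild-type (WT) mice, all aged 12 days. Hyp mice lack a 3′ stretch of Phex on the C57BL/6 background and are a model of X-linked hypophosphatemia. The WT mice carry only the strain label wild type. The RNA of each array came from tibia and femur, with 2 bone samples of the same genotype combined per extraction. From how many animals the 4 samples of a group came is not stated, so each p-value below reflects the spread over RNA samples, which may be in part technical.

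Osteoclasts, the cells that resorb bone, form by fusion of cells of the monocyte lineage. CSF1, also called M-CSF, acts through its receptor CSF1R to keep these precursors alive and dividing, and IL-34 is another ligand of the same receptor. RANKL on osteoblasts, osteocytes, stromal cells and hypertrophic chondrocytes binds RANK on the precursors and starts their differentiation, while osteoprotegerin is a soluble decoy receptor that binds RANKL and keeps it from RANK. The question for these messages is which of them differ between bone with and without intact Phex, and the title of the series names Fgf23 and mineralization.

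Values were on the log2 scale and were already centred, with a median of 0 at each probe set, so they give differences between arrays and not levels. Presence or absence of a message, and of the defining markers of a cell type, cannot be read from them. Phex, the deleted gene, lay between -4.93 and -3.72 in Hyp and between 3.72 and 4.00 in WT at probe set 1421979_at, and between -2.74 and -2.03 in Hyp and between 2.03 and 2.96 in WT at 1450445_at. Each array thus went with its label, though it was not examined whether these probe sets fall in the deleted stretch. One array stood apart from the others of both genotypes: WT replicate 3 had a score of 38.4 on the second principal component (22.6% of the variance), against scores between -17.5 and 10.3 for the other 7 arrays. The mean over 20 skeletal muscle markers was -1.22 to 0.17 in Hyp, -0.58 to 0.30 in the other WT arrays and 2.04 in WT replicate 3.

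Across the signalling genes, 3 of 6 (50%) rose in Hyp bone and 3 did not pass the test (limma, adjusted over all 18193 genes, threshold 0.05), where 6.54% of all genes were higher and 6.32% lower. The values of the 3 that rose did not overlap between the genotypes, as in 10.3% of all genes with Hyp higher. Csf1, its receptor Csf1r and the decoy receptor Tnfrsf11b rose, by 1.3-fold, 1.28-fold and 1.57-fold, while Tnfsf11, Tnfrsf11a and Il34 did not pass. By probe set, 5 of 14 (35.7%) were higher past the test (3 without WT replicate 4) and none was lower, against a background of 3.22% higher and 3.91% lower over all probe sets. The values of the 2 genotypes did not overlap, with Hyp higher, in 8 of the 14 probe sets (57.1%), where 8.33% of all probe sets were so. All 14 differences were above 0, as were 56.5% of those over all probe sets, and their median was 0.33, against 0.02 over all probe sets.

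**Figure D1:**
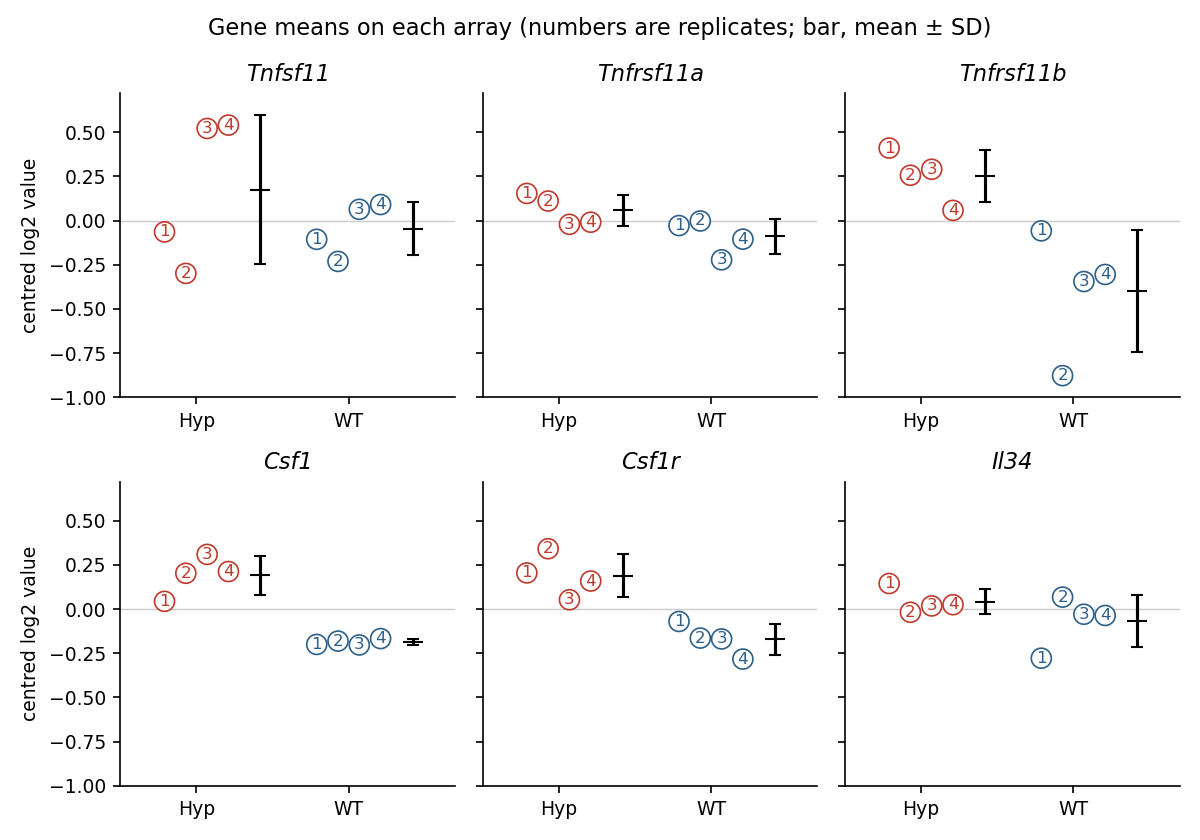
Centred log2 value of each gene (mean over its probe sets) on each array, Hyp left and WT right, with the replicate number in each circle and the mean ± SD (n = 4) as a bar. Csf1, Csf1r and Tnfrsf11b do not overlap between genotypes, while Hyp replicates 3 and 4 lie above all other arrays for Tnfsf11.

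The ligands come first. Csf1 is printed here as the ligand gene that rose and Tnfsf11 as the one that varied most among Hyp arrays, each as the 250 bases before its annotated start. Both genes lie on the minus strand, and the bases are given 5′ to 3′ on the gene's strand, with motif matches in capitals. The sequences are from RefSeq on GRCm38.p6, whose promoter table held 3 of the 6 genes, and the windows are chr3:107760470-107760719 for Csf1 and chr14:78308044-78308293 for Tnfsf11.
Csf1: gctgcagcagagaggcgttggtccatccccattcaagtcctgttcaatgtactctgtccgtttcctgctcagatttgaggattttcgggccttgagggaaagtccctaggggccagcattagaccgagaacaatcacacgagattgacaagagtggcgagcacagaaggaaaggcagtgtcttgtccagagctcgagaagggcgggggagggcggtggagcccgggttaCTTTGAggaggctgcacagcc
Tnfsf11: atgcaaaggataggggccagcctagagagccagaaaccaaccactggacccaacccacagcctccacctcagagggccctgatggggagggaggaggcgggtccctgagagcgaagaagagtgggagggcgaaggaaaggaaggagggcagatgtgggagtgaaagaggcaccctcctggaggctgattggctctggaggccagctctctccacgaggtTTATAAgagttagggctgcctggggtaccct
Both strands were searched for the letters of 7 elements. The TATA box (TATAA) was found in the Tnfsf11 window, as overlapping matches on both strands between -31 and -26 from the start, and not in that of Csf1; 22.8% of all 32851 promoter windows of the same length hold it. A TCF/LEF element (CTTTGA), held by 13.8% of windows, was found once in the Csf1 window, between -21 and -16. No match in these windows was found for AP-1 (TGANTCA, in 6.75% of windows), RUNX (TGTGGT, 14%), CRE (TGACGTCA, 1.55%) or EGR (GCGTGGGCG, 0.536%). Nor was AGGTCA found (14%), the letters taken here for the VDR element, whose longer forms were not searched for. These are matches of letters and not sites of binding.

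Csf1 had the smallest p of the 6 genes. Its gene mean was 0.04, 0.20, 0.31 and 0.21 in Hyp replicates 1 to 4, against -0.20, -0.18, -0.20 and -0.17 in WT replicates 1 to 4. In this mean over 4 probe sets the WT arrays lay close together, and every Hyp array lay above them. Their SD was 0.017, which 99% of genes, with any number of probe sets, reached or exceeded among WT arrays. At single probe sets the WT SD ranged from 0.048 (1460220_a_at) to 0.188 (1448914_a_at). WT replicate 3 was the lowest WT array at 1425154_a_at and the highest at 1448914_a_at. The difference in the gene mean was 0.38 ± 0.06 (SE, n = 4 per group; limma adjusted p = 0.0021), with a 95% confidence interval from 0.25 to 0.51.

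The 4 probe sets of Csf1 did not move by the same amount. At 1448914_a_at the values were 0.13, 0.41, 0.53 and 0.29 in Hyp, against -0.52, -0.53, -0.13 and -0.38 in WT, a difference of 0.73 ± 0.11 (SE; limma adjusted p = 0.0028). At 1460220_a_at they were 0.18, 0.24, 0.32 and 0.19 in Hyp, against -0.21, -0.18, -0.25 and -0.29 in WT, a difference of 0.47 ± 0.06 (limma adjusted p = 0.00108). These 2 probe sets share the annotated accession of 1 cDNA, and at both every Hyp array was above every WT array. The other 2 share the accession of another cDNA. At 1425155_x_at the difference was 0.245 ± 0.07 (limma adjusted p = 0.0807) with no overlap between the genotypes. At 1425154_a_at it was 0.08 ± 0.09 (limma adjusted p = 0.654), with Hyp values from -0.14 to 0.17 and WT values from -0.27 to 0.02, so that the genotypes overlapped. Without WT replicate 3, the array with the highest muscle markers, the difference there was 0.011, and without Hyp replicate 3 or 4 it was 0.053 or 0.031. Without Hyp replicate 1 it was 0.133. The intervals of 1425154_a_at (-0.12 to 0.28) and 1448914_a_at (0.49 to 0.97) did not meet. Which transcripts each probe set reads was not examined, and the suffix _x_at marks probes that can also match other sequences.

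**Figure D2:**
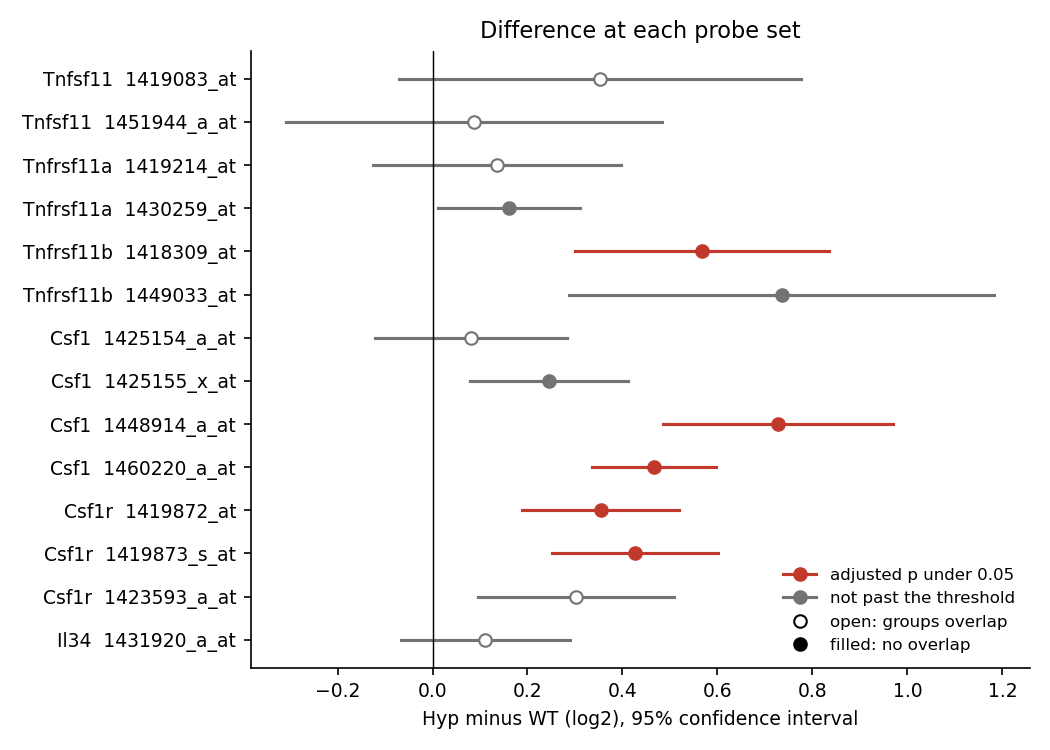
Hyp minus WT difference (log2) at each of the 14 probe sets, with its 95% confidence interval from the fit over all probe sets; red marks an adjusted p under 0.05 and open circles mark genotypes that overlap. The 5 red probe sets belong to Csf1, Csf1r and Tnfrsf11b, and every point lies right of 0.

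Il34, the other ligand of CSF1R, had 1 probe set, 1431920_a_at. Its values were 0.15, -0.02, 0.02 and 0.03 in Hyp, against -0.28, 0.07, -0.03 and -0.04 in WT. The genotypes overlapped, and WT replicate 1 was the lowest array. The gene-level difference was 0.11 ± 0.075 (SE; limma adjusted p = 0.376), with an interval from -0.05 to 0.28, and 0.041 without WT replicate 1. The difference between the ligands on each array, Csf1 minus Il34, was -0.10, 0.22, 0.29 and 0.19 in Hyp, against 0.08, -0.25, -0.17 and -0.13 in WT, and changed by 0.27 ± 0.11 (SE; not tested) with overlap of Hyp replicate 1 and WT replicate 1. It changed by 0.62 ± 0.16 with the probe set of the largest SD for each gene.

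Tnfsf11, the RANKL gene, showed its widest spread among Hyp arrays. Its gene mean was -0.06, -0.30, 0.52 and 0.54 in Hyp replicates 1 to 4, against -0.11, -0.23, 0.06 and 0.09 in WT replicates 1 to 4. Hyp replicates 3 and 4 lay above all WT arrays and Hyp replicate 2 below all of them. In both genotypes replicate 2 was lowest, followed by replicates 1, 3 and 4. The SD was 0.42 in Hyp, which 0.291% of all genes reached or exceeded among Hyp arrays, and 0.15 in WT, reached or exceeded by 17.7%. The difference of 0.22 ± 0.17 (SE; limma adjusted p = 0.46) did not pass, and its interval from -0.17 to 0.61 spans both a decrease and an increase. Leaving out Hyp replicate 3 or 4 gave 0.104 or 0.098, and leaving out Hyp replicate 2 gave 0.378.

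Both Tnfsf11 probe sets gave the same split of Hyp arrays. At 1419083_at the Hyp values were -0.03, -0.18, 0.52 and 0.68, against -0.24, -0.37, 0.16 and 0.03 in WT, a difference of 0.35 ± 0.19 (limma adjusted p = 0.315). At 1451944_a_at they were -0.10, -0.42, 0.52 and 0.40 in Hyp, against 0.03, -0.09, -0.03 and 0.15 in WT, a difference of 0.09 ± 0.18 (limma adjusted p = 0.819). Without Hyp replicate 3 or 4 the difference at this probe set was -0.05 or -0.01. The mean over 11 marrow stromal and adipocyte markers was also highest in Hyp replicates 3 and 4, at 0.11 and 0.21, against -0.02 and -0.05 in Hyp replicates 1 and 2 and -0.17 to -0.04 in WT. This list includes Vcam1 and Kitl, which are set beside Tnfsf11 again below, and 4 of its genes rose and 2 fell. The mean over 12 T and NK cell markers, other cells that can make RANKL, lay at -0.03 and 0.07 in Hyp replicates 3 and 4 and at 0.07 and 0.14 in Hyp replicates 1 and 2. Osteoblast markers lay at -0.32, -0.38, -0.17 and -0.33 in Hyp replicates 1 to 4. Osteocyte markers lay at -0.001, -0.085, -0.174 and -0.426 in these arrays, and growth plate and hypertrophic cartilage markers at 0.24, 0.35, 0.36 and 0.005. In none of these other lists were Hyp replicates 3 and 4 both highest. The part of any of these cells in the Tnfsf11 values was not tested. In RNA of whole bone, fewer cells of a type and less RNA per cell cannot be told apart.

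Tnfrsf11b, the osteoprotegerin gene, rose. Its gene mean was 0.41, 0.26, 0.29 and 0.06 in Hyp replicates 1 to 4, against -0.06, -0.88, -0.35 and -0.31 in WT replicates 1 to 4. The genotypes did not overlap, although Hyp replicate 4 and WT replicate 1 lay near each other, and WT replicate 2 was far below the other arrays. The difference was 0.65 ± 0.15 (SE; limma adjusted p = 0.0166), with an interval from 0.32 to 0.98, and 0.49 without WT replicate 2. At 1418309_at it was 0.57 ± 0.12 (limma adjusted p = 0.0193), and at 1449033_at 0.735 ± 0.20 (limma adjusted p = 0.0562). At 1449033_at WT replicate 2 lay at -1.20 and the other WT arrays between -0.29 and -0.10, and without that array the difference was 0.49 (limma adjusted p = 0.0133). The call at 1418309_at was lost without Hyp replicate 1, Hyp replicate 3 or WT replicate 4, with differences of 0.51, 0.54 and 0.57 (limma adjusted p = 0.0572, 0.0597 and 0.0504). Osteoblast markers, from cells that make osteoprotegerin, lay the other way in the same arrays: 9 of 11 measured fell and 1 rose (90.9%, against 12.9% of all genes), with list means from -0.38 to -0.17 in Hyp and from 0.21 to 0.35 in WT.

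List means of some other cells lay the same way as Tnfrsf11b, Csf1 and Csf1r. Of 13 endothelial markers 11 rose and none fell (84.6%, against 12.9% of all genes), with list means from 0.09 to 0.26 in Hyp and from -0.34 to -0.16 in WT, and Plvap, a protein of fenestrated endothelium, rose by 0.59 ± 0.06 (SE). Of 9 erythroid markers 7 rose and none fell (77.8%), with list means from 0.06 to 0.20 in Hyp and from -0.34 to -0.15 in WT. Of 14 growth plate and hypertrophic cartilage markers 6 rose and 2 fell (57.1%), with list means from 0.005 to 0.36 in Hyp and from -0.36 to -0.10 in WT. Col11a1, with the smallest p among them, fell by 0.78 ± 0.06 (SE). Col10a1, the collagen of hypertrophic chondrocytes, rose by 2.57 ± 0.28 and Col2a1, the main cartilage collagen, by 0.78 ± 0.16. The other marker lists gave 2 of 11 osteocyte markers higher and 4 lower, 4 of 11 stromal and adipocyte markers higher and 2 lower, 4 of 12 T and NK cell markers higher and none lower, and 3 of 13 B lineage markers lower and none higher. The lower osteocyte markers include Phex, the gene deleted in Hyp, and the higher ones include Fgf23. Of 20 skeletal muscle markers 0 passed in limma, and 2 had an unadjusted p under 0.05. The part of these cells in the Csf1, Csf1r and Tnfrsf11b differences was not tested.

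**Figure D3:**
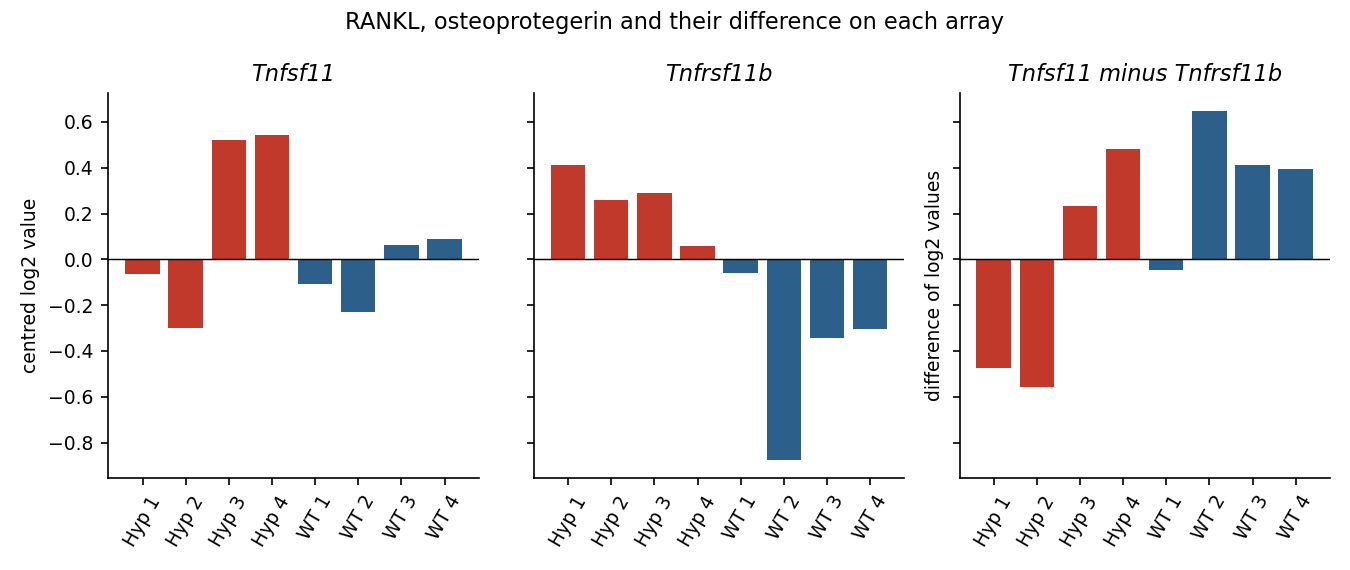
Centred log2 values of Tnfsf11 and Tnfrsf11b (gene means) and the first minus the second, as a bar for each array, Hyp in red and WT in blue. Tnfrsf11b is above 0 on all 4 Hyp arrays and below 0 on all 4 WT arrays, whereas the difference spans -0.56 to 0.48 in Hyp and -0.05 to 0.65 in WT.

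The balance of the RANKL and osteoprotegerin messages was read as Tnfsf11 minus Tnfrsf11b on each array. It was -0.48, -0.56, 0.23 and 0.48 in Hyp replicates 1 to 4, against -0.05, 0.65, 0.41 and 0.40 in WT replicates 1 to 4. Hyp replicates 1 and 2 were lower than all WT arrays, and Hyp replicates 3 and 4 lay within the WT range. The Hyp mean was -0.08 ± 0.52 and the WT mean 0.35 ± 0.29 (SD, n = 4 each), a change of -0.43 ± 0.30 (SE; not tested, since the genes were chosen with results known). The change lay between -0.62 and -0.27 under 12 other settings, and it was nearest to 0 when Hyp replicate 2 was left out (-0.272).

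The receptors differed in their calls. Csf1r, which marks the monocyte and macrophage lineage and its osteoclast precursors, had gene means of 0.21, 0.34, 0.05 and 0.16 in Hyp replicates 1 to 4, against -0.07, -0.16, -0.17 and -0.28 in WT replicates 1 to 4. Every Hyp array was above every WT array, and the difference was 0.36 ± 0.07 (SE; limma adjusted p = 0.00742; interval 0.21 to 0.52). By probe set the difference was 0.43 ± 0.08 at 1419873_s_at (limma adjusted p = 0.00926), 0.355 ± 0.08 at 1419872_at (limma adjusted p = 0.0184) and 0.30 ± 0.09 at 1423593_a_at (limma adjusted p = 0.0838). Only the last of these overlapped between the genotypes, with Hyp replicate 3 at -0.05 and WT replicate 1 at 0.05. Without WT replicate 4 the difference at 1419872_at was 0.32 (limma adjusted p = 0.0575).

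Monocyte and macrophage markers moved with Csf1r: 13 of 21 measured rose and none fell (61.9%, against 12.9% of all genes), with a median of 0.375 and list means from 0.16 to 0.29 in Hyp and from -0.29 to -0.18 in WT. Among them F13a1 rose by 1.08 ± 0.08 (SE), Adgre1, the F4/80 antigen, by 0.94 ± 0.08 and C1qa, a chain of complement C1q, by 0.86 ± 0.07. Csf1r minus the mean of these markers was -0.04, 0.07, -0.11 and -0.13 in Hyp, against 0.17, 0.13, 0.04 and -0.10 in WT, a change of -0.11 ± 0.08 (SE; not tested) with overlap. Neutrophil markers, of another myeloid cell, included 1 of 12 that rose (8.33%, near the 6.54% of all genes that were higher), with list means from -0.05 to 0.11 in Hyp and from -0.12 to -0.02 in WT.

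Tnfrsf11a, the RANK gene, did not pass. Its gene mean was 0.15, 0.11, -0.02 and -0.01 in Hyp replicates 1 to 4, against -0.03, -0.002, -0.22 and -0.11 in WT replicates 1 to 4, and the genotypes overlapped. The difference was 0.15 ± 0.07 (SE; limma adjusted p = 0.171; interval 0.004 to 0.29). At 1430259_at the Hyp values were 0.20, 0.03, 0.05 and 0.03, against -0.20, -0.05, -0.03 and -0.06 in WT, a difference of 0.16 ± 0.07 (limma adjusted p = 0.194) without overlap. At 1419214_at they were 0.10, 0.19, -0.09 and -0.04 in Hyp, against 0.15, 0.04, -0.42 and -0.15 in WT, a difference of 0.135 ± 0.12 (limma adjusted p = 0.551), and without WT replicate 3 or Hyp replicate 2 it was 0.027 or 0.085. The lowest array there was WT replicate 3, the one with the highest muscle markers, and with the muscle marker mean as a covariate the difference was -0.000252.

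Markers of mature osteoclasts passed about as often as all genes. Of 16 measured, 1 rose and 1 fell, a share of 12.5% against 12.9% of all genes in either direction, with a median of -0.06 and list means from -0.07 to 0.01 in Hyp and from -0.03 to 0.07 in WT. The 2 were Car2, carbonic anhydrase 2, which supplies acid for resorption, at 0.26 ± 0.05 (SE), and Dcstamp, needed for osteoclast fusion, at -0.33 ± 0.08, whose call was lost without Hyp replicate 2, 3 or 4 or WT replicate 1 (-0.323 to -0.295, limma adjusted p from 0.0519 to 0.0677). Named after their values were seen as the classical markers, Acp5 (tartrate-resistant acid phosphatase) lay at -0.08 ± 0.06 (limma adjusted p = 0.387; interval -0.20 to 0.04) and Ctsk (cathepsin K) at -0.05 ± 0.06 (limma adjusted p = 0.622; interval -0.18 to 0.08).

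**Figure D4:**
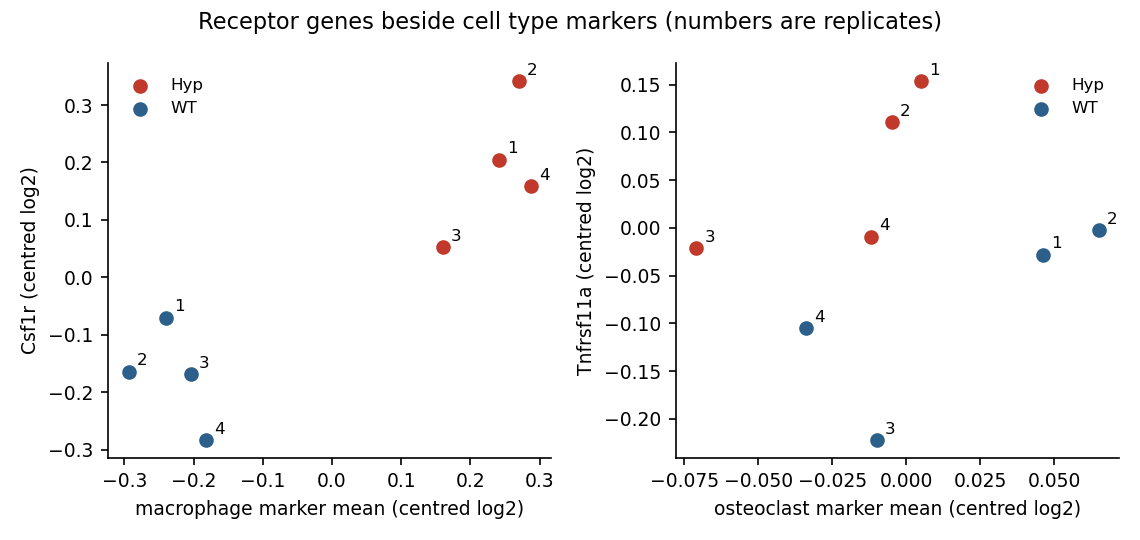
Left, Csf1r against the mean of 21 macrophage markers; right, Tnfrsf11a against the mean of 16 osteoclast markers; each point is 1 array (centred log2, both axes), Hyp in red and WT in blue, with its replicate number. On the left Hyp and WT arrays lie apart on both axes, while on the right they overlap on both.

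Most listed genes downstream of the receptors did not pass the test. Of 18 measured RANK adaptors and NF-κB genes 3 rose and none fell (16.7% past the test, against 12.9% of all genes in either direction), with a median of 0.05 against 0.03 over all genes. They were the NF-κB subunits Nfkb2 at 0.21 ± 0.04 (SE; limma adjusted p = 0.00895), Relb at 0.29 ± 0.07 (0.019) and Rela at 0.24 ± 0.06 (0.0333). Nfkb2 and Relb belong to the alternative arm of NF-κB and Rela to the classical arm. In the probe set test Nfkb2 passed at 1 of its 2 probe sets, and Rela did not pass at its 1 probe set. The call of Relb was lost without Hyp replicate 2, Hyp replicate 3 or WT replicate 4 (0.256 to 0.263, limma adjusted p from 0.0546 to 0.0568), and that of Rela without each array in turn except WT replicate 3 (0.193 to 0.252, limma adjusted p from 0.0517 to 0.0881). Traf6, the main adaptor of RANK and named after its value was seen, lay at -0.01 ± 0.07.

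Among 20 genes of immunoreceptor co-stimulation and osteoclast transcription factors 4 rose and none fell (20% past the test, against 12.9% of all genes), with a median of 0.09 against 0.03 over all genes. Fcer1g and Tyrobp, the adaptors through which co-stimulatory receptors act on osteoclast precursors, rose by 0.51 ± 0.06 (SE) and 0.38 ± 0.06, Trem2, a receptor that pairs with the Tyrobp product, by 0.31 ± 0.05 and Tfe3, a transcription factor related to Mitf, by 0.23 ± 0.05. Tyrobp lay at 0.17, 0.35, 0.11 and 0.23 in Hyp, against -0.21, -0.18, -0.11 and -0.16 in WT, so that Hyp replicate 2 was highest and replicate 3 lowest among Hyp arrays, as for Csf1r. These adaptors are also made by macrophages, whose markers are given above, and the part of those cells was not tested. Trem2 lay at 0.114 (limma adjusted p = 0.279) when its probe sets with a shared-probe suffix were left out. Nfatc1, the master factor of osteoclast differentiation and named after its value was seen, lay at -0.03 ± 0.05 (limma adjusted p = 0.76).

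Of 10 measured negative regulators of osteoclast formation, Ptpn6, the phosphatase SHP-1, rose by 0.23 ± 0.07 (SE; limma adjusted p = 0.0404) and Id1 fell by 0.37 ± 0.08 (limma adjusted p = 0.0166), and the other 8 did not pass (20% past the test, against 12.9% of all genes). The call of Ptpn6 was lost without each array in turn except Hyp replicate 3 and WT replicate 3 (0.194 to 0.254, limma adjusted p from 0.0584 to 0.11). Of 15 genes of CSF1R signalling and Csf1r transcription 1 rose (6.67%), a share near the 6.54% of all genes that were higher. It was Cebpa, a myeloid transcription factor that also acts in adipocytes, at 0.45 ± 0.08 (limma adjusted p = 0.00365).

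Sheddases and binding partners of these ligands went both ways, with 2 of 14 higher and 3 lower (35.7% past the test, against 12.9% of all genes) and a median of 0.045 against 0.03 over all genes. Mmp14, a membrane metalloproteinase that can shed RANKL, and Mmp7, another enzyme that can cleave it, rose by 0.28 ± 0.06 (SE) each. Lgr4, described as a further receptor of RANKL in mice, fell by 0.34 ± 0.06, with values from -0.31 to -0.11 in Hyp and from 0.06 to 0.23 in WT. The matrix proteoglycans Bgn and Dcn fell by 0.33 ± 0.06 and 0.29 ± 0.08. The call of Dcn was lost without Hyp replicate 1, Hyp replicate 2 or any WT array (-0.324 to -0.241, limma adjusted p from 0.0585 to 0.0988). The sheddases Adam10 and Adam17, named after their values were seen, lay at -0.05 ± 0.06 and 0.03 ± 0.07.

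Genes known to regulate RANKL or osteoprotegerin transcription held 4 that rose and 7 that fell among 33 measured (33.3% past the test, against 12.9% of all genes), with a median of 0.07. Named here are the 6 with the smallest p. The osteocyte gene Sost, whose product limits Wnt signalling, fell by 1.85 ± 0.14 (SE), Lifr, a receptor chain for cytokines of the interleukin-6 family, by 0.59 ± 0.05 and Mef2c, a transcription factor of osteocytes that acts on Sost, by 0.43 ± 0.08. Within the prostaglandin pathway, a known inducer of RANKL, the enzyme Ptgs2 fell by 1.13 ± 0.10 and the receptor Ptger2 rose by 0.57 ± 0.10. Tnfrsf1a, the main receptor of TNF, rose by 0.31 ± 0.04. Vdr, the vitamin D receptor, and Pth1r, the receptor of parathyroid hormone, both named after their values were seen, lay at 0.09 ± 0.14 (limma adjusted p = 0.731) and -0.24 ± 0.07 (limma adjusted p = 0.0351).

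Relatives of the 6 genes were set beside them. Of 13 other TNF superfamily ligands 0 passed in limma, and 1 had an unadjusted p under 0.05: Tnfsf10 (TRAIL, a ligand that osteoprotegerin can also bind), at 0.16 ± 0.06 (limma adjusted p = 0.0999). Of 24 other TNF receptor family members 4 rose and 1 fell (20.8%, against 12.9% of all genes): besides Tnfrsf1a, Tnfrsf4 and Tnfrsf21 at 0.31 ± 0.08 (SE) each and Ltbr, the lymphotoxin beta receptor, at 0.24 ± 0.07 rose, and Tnfrsf23, a decoy receptor of mice, fell by 0.69 ± 0.13. The call of Tnfrsf4 was lost without Hyp replicate 2 or 3 or WT replicate 1 or 4 (0.282 to 0.324, limma adjusted p from 0.0515 to 0.0633). That of Tnfrsf21 was lost without Hyp replicate 1 or 4 or WT replicate 1 or 4 (0.254 to 0.314, limma adjusted p from 0.0515 to 0.071), and that of Ltbr without each array in turn except Hyp replicate 1 and WT replicate 3 (0.210 to 0.262, limma adjusted p from 0.0555 to 0.112). At its 1 probe set Ltbr did not pass the probe set test.

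Of 15 other colony-stimulating factors, their receptors and class III receptor tyrosine kinases, the receptor family of Csf1r, 5 rose and 1 fell (40%, against 12.9% of all genes), with a median of 0.155 against 0.03 over all genes. Pdgfrb, a receptor of pericytes and stromal cells, rose by 0.58 ± 0.05 (SE), Kitl, the stem cell factor of marrow stroma, by 0.50 ± 0.08 and Csf2 (GM-CSF) by 0.33 ± 0.08. Its receptor chain Csf2ra rose by 0.30 ± 0.07 and Csf3r, the G-CSF receptor of neutrophils, by 0.29 ± 0.06, while Pdgfra fell by 0.47 ± 0.07. Csf2ra passed as a gene mean, but 0 of its 2 probe sets passed the probe set test. Without WT replicate 1 Csf2ra lay at 0.270 (limma adjusted p = 0.055), and without WT replicate 1 or 4 Csf2 lay at 0.302 or 0.293 (limma adjusted p = 0.0609 or 0.0535). Kitl lay at 0.26, 0.09, 0.34 and 0.42 in Hyp, against -0.25, -0.19, -0.35 and -0.13 in WT, with Hyp replicate 2 lowest among the Hyp arrays, as for Tnfsf11.

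**Figure D5:**
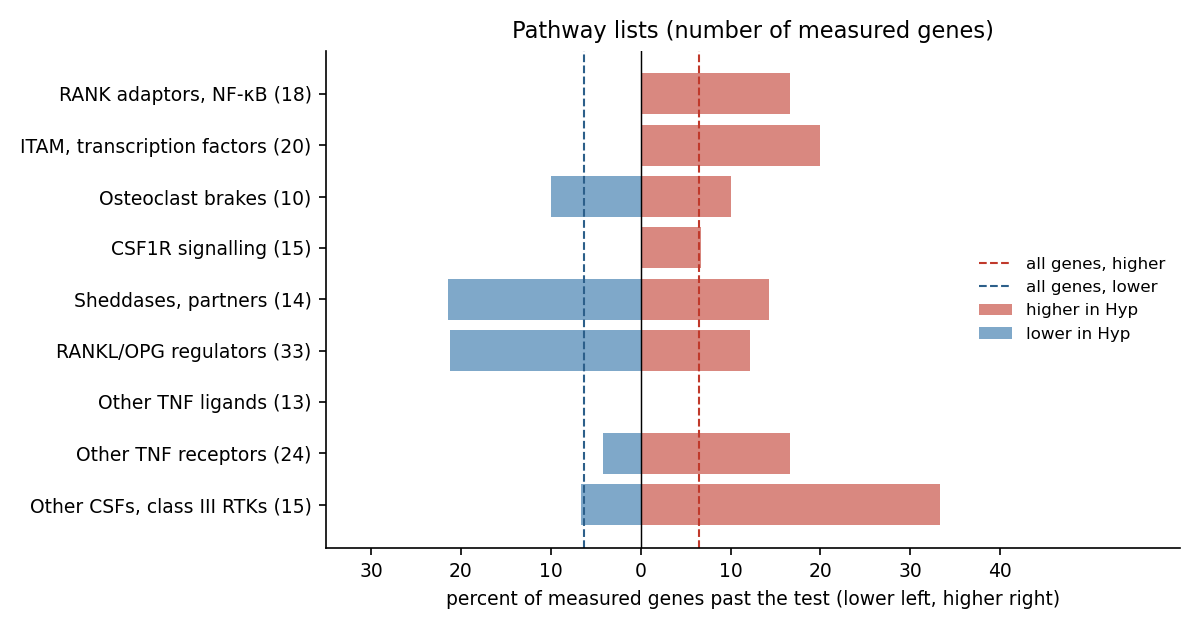
Percent of the measured genes of each pathway list (number in brackets) that passed the gene test, higher in Hyp to the right and lower to the left of 0, with dashed lines at 6.54% (higher) and 6.32% (lower) for all genes. The lists of RANKL and osteoprotegerin regulators, of sheddases and of negative regulators of osteoclast formation have bars on both sides. So do the other TNF receptors and the other colony-stimulating factors, mostly to the right, while the other TNF ligands have none.

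Genes whose pattern over the 8 arrays was most like each of the 6 were sought by Pearson's r among 1884 genes with an SD of at least 0.2. The 8 arrays share their genotype split, so r of the deviations from the group means is given as well, and both are descriptions. Tnfsf11 was most like Vcam1, an adhesion molecule of stromal and endothelial cells, with r of 0.967 and 0.969 for the deviations. Vcam1 lay at 0.05, -0.22, 0.33 and 0.50 in Hyp, against -0.11, -0.15, -0.01 and 0.03 in WT, with the same order of high and low Hyp arrays. It was followed by Foxc2 (0.904 and 0.898), a mesenchymal transcription factor, and Ctla2a (0.898 and 0.888). None of these 3 passed between genotypes.

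Tnfrsf11b was most like Egr2, an early growth response factor, with r of 0.934 and 0.831 for the deviations, Megf10 (0.926 and 0.756) and Gem, a small GTPase (0.916 and 0.754), and all 3 rose in Hyp, by 1.19 ± 0.15 (SE), 0.56 ± 0.11 and 1.27 ± 0.15. Csf1 was most like Chst7, a sulfotransferase (0.992 and 0.941), Rapgef5 (0.989 and 0.965) and Dpep1, a dipeptidase (0.974 and 0.748), which also rose, by 0.39 ± 0.06, 0.37 ± 0.07 and 0.72 ± 0.07. Csf1r was most like Stk10 (0.971 and 0.849), Cd74, the invariant chain of antigen-presenting cells (0.970 and 0.843), and Cma1, mast cell chymase (0.968 and 0.831), which rose by 0.36 ± 0.06, 0.68 ± 0.10 and 1.54 ± 0.19. For Tnfrsf11a the 3 were Isx, Rapsn and 4930407I10Rik (r from 0.922 to 0.943, and from 0.851 to 0.896 for the deviations). For Il34 they were Gal3st2, Plekhb1 and Gm5089 (0.889 to 0.912, and 0.853 to 0.922 for the deviations). None of these 6 passed with all 8 arrays, whereas without WT replicate 2 Isx (0.331, limma adjusted p = 0.0353), 4930407I10Rik (0.343, limma adjusted p = 0.0363) and Gal3st2 (0.357, limma adjusted p = 0.0232) did.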

How the data were processed

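The deposited table gave 1 log2 value per probe set and array, made by the authors with RMA per the submitters' processing notes (version not given in the sources used here). From the values, each probe set had been centred on its median over the 8 arrays (within 5e-07), and the log base is taken as 2 because RMA gives log2. Array medians lay between -0.00823 and 0.00823. Of 45101 probe sets 64 controls were left out. Of the 45037 tested, 34945 had 1 gene symbol, 932 several and 9160 none here, and 34741 of the first were found by gene identifier in a RefSeq table of GRCm38.p6. A listed gene counts as measured where a probe set was annotated to it alone.

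The 2 genotypes were compared with limma 3.58.1 in R 4.3.3 (lmFit and eBayes, two-sided, no covariate, Benjamini-Hochberg adjustment over all probe sets or all genes, threshold 0.05). A gene's value is the mean over its probe sets on each array. Differences are Hyp minus WT on the log2 scale, errors are SE from the fit or SD between arrays where marked, and intervals are 95%. The number of arrays limits the precision: the median SE was 0.081 for probe sets and 0.065 for genes. Simulated data drawn with the residual spread of this comparison (45037 probe sets) served as a test: 12 of 67 differences of 0.3, 52 of 67 of 0.6 and 64 of 66 of 1 were recovered. All of these differences were upward, no other probe set was changed, and 8 unchanged probe sets were called. In the data 1452 probe sets were higher and 1760 lower, so the shares recovered there may differ.

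The 6 genes and the lists were chosen with earlier results of these data known. Genes named from a pathway list are up to 6, and from a marker list up to 3, with the smallest p among those past the test; others are said to be named after their values were seen. Lists are described by counts and medians and not tested as sets.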

Additional observations from a re-analysis of the deposited data

Results flagged for a closer look

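In 7 of 200 groups of 4 arrays examined, 1 array lay far from the other 3 relative to the group's range; chance gives about 1 in 20. At Tnfrsf11a probe set 1430259_at Hyp replicate 1 lay at 0.204 and the other Hyp arrays between 0.026 and 0.047. At Tnfrsf11b probe set 1449033_at WT replicate 2 lay at -1.199, against -0.285 to -0.101 for the other WT arrays. At Csf1 probe set 1425154_a_at WT replicate 3 lay at -0.274 and the others between -0.012 and 0.020. Among genes named beside these, Hyp replicate 3 lay apart for Bgn (-0.073, others -0.276 to -0.258), Hyp replicate 4 for Col2a1 (0.049, others 0.637 to 0.743), Hyp replicate 1 for Plvap (0.189, others 0.329 to 0.351) and WT replicate 1 for Lifr (0.405, others 0.314 to 0.323).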

How the results depend on the processing

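Csf1 and Csf1r gene means stayed higher in Hyp and past 0.05 in all 20 and 21 other settings that gave them a value (0.34 to 0.73 and 0.31 to 0.43). The Tnfrsf11b gene mean (0.49 to 0.76) missed a threshold of 0.01 (0.651, limma adjusted p = 0.0166) and, in a setting added after the data were seen, missed 0.05 without both WT replicate 3 and Hyp replicate 2 (0.667, limma adjusted p = 0.0537). With 1 array fewer this gene mean stayed past 0.05, but only barely without Hyp replicate 1 (0.598, limma adjusted p = 0.0499). Tnfsf11, Tnfrsf11a and Il34 gene means kept their sign and stayed short of the threshold. Single probe sets changed sign as follows: Tnfrsf11a 1419214_at was -0.000252 with the muscle covariate and -0.023 without both arrays, and Tnfsf11 1451944_a_at was -0.052 without Hyp replicate 3 and -0.011 without Hyp replicate 4, and reached 0.261 without Hyp replicate 2. The higher member probe sets, 5 as reported, numbered 3 to 6 with 1 array fewer (3 without WT replicate 4), 3 at a threshold of 0.01 and 8 at 0.1. Over all probe sets, with 1452 higher and 1760 lower, 1 array fewer gave 625 to 2125 higher and 1055 to 1975 lower, a threshold of 0.01 gave 458 and 844, a threshold of 0.1 gave 2714 higher, array weights 2206 higher and the probe sets with SD above the median 965 higher. Over all genes, with 1190 higher and 1150 lower, 1 array fewer gave 605 to 1437 higher, 0.01 gave 407 and 618 and 0.1 gave 1891 higher. The listed genes past the test numbered 38 higher and 19 lower at 0.01. Replicate numbers in the labels need not pair the arrays. Deviations of same-numbered arrays correlated at 0.145, -0.044, 0.262 and 0.179. The WT array most like Hyp replicate 3 or 4 had the same number, which did not hold for Hyp replicates 1 and 2. With the replicate block Csf1 lay at 0.380, Csf1r at 0.361 and Tnfrsf11b at 0.651, all still past 0.05. Tnfrsf11b 1449033_at passed too (limma adjusted p = 0.0434). The Tnfsf11 gene mean stayed at 0.220 and did not pass (limma adjusted p = 0.199), but its SE was 0.099 with the block and 0.175 without. At Tnfsf11 1419083_at the limma adjusted p was 0.0581 with the block, against 0.315 without. Fewer arrays and other thresholds change counts by construction; the cause of other changes was not tested. Signal over background cannot be read from centred values.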
